A study of Arabidopsis thaliana with 6 samples.

Results

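The set described here holds 86 of the 22746 probe sets of the Affymetrix ATH1 array of Arabidopsis thaliana. In both genotypes of the study, these probe sets had a higher signal at 30 °C than at 20 °C and a lower signal at 40 °C than at 20 °C. They were chosen on the measured values: after raising all signals to a floor of 13.7 and taking log2, the difference of 30 minus 20 °C had to be at least 0.8 and that of 40 minus 20 °C at most -0.8 in the AtrbohB mutant and in wild type. In addition, mutant minus wild type at 40 °C had to lie within 1 either way, and the genes EXO, EXLA1 and EXLA2 were left out. The differences between temperatures therefore describe the set and were not tested.

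The study asks how the respiratory burst, in which NADPH oxidases release reactive oxygen, takes part in the tolerance of heat. Its 6 groups have 1 array each: AtrbohB mutant seedlings at 20, 30 and 40 °C and wild-type seedlings at 20, 30 and 40 °C. All were of the accession Col-0, were floated on distilled water at their temperature and were frozen; each sample pooled 90 plants. The mutant carries a dSpm transposon in At1g09090 and is a single insertion line, and neither the age of the seedlings nor the length of the treatment is given in the labels. The array of the mutant at 40 °C is marked as a repeat in its title, without saying of what.

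As background, growing plant cells enlarge by loosening a wall of cellulose, xyloglucan and pectin. Xyloglucan endotransglucosylases cut and rejoin xyloglucan chains, pectin methylesterase inhibitors hold back the removal of methyl groups from pectin, and secreted peroxidases can link or cleave wall polymers with the help of hydrogen peroxide. Such genes are known to respond to hormones, touch and temperature. In severe heat, plant cells turn much of their gene expression to heat shock proteins.

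The probe-set signals had a median of 38.5 to 43.5 on the 3 mutant arrays and 40.8 to 44.0 on the 3 wild-type arrays, and the authors' scaling set their trimmed means alike. The tissue was checked with lists of markers, of which those of the leaf were strong: RCA, the activase of Rubisco, had 3040, 3884 and 3829 in the mutant and 2749, 3034 and 3829 in wild type at 20, 30 and 40 °C. The root marker PYK10 had 2684, 2158 and 789.9 in the mutant and 2587, 1994 and 849.8 in wild type, so it was lowest at 40 °C in both. Of the markers listed, 3 of 8 for the shoot and 3 of 8 for the root had a probe set annotated with that gene alone. The other root markers were weak and did not share that course: EXPA7 had 37.0, 41.8 and 23.7 in the mutant and 29.8, 51.8 and 29.9 in wild type, and EXPA18 at 20 and 40 °C had 34.8 and 37.0 in the mutant and 27.5 and 36.2 in wild type. The summed signal of the 3 root markers, nearly all of it PYK10, was 850.6 in the mutant and 915.9 in wild type at 40 °C, against 2756 and 2645 at 20 °C. The summed signal of the 3 shoot markers was 11478 and 11401 at 40 °C, against 8052 and 7394 at 20 °C. The pollen marker LAT52 was at the floor on 5 of 6 arrays, and no seed marker had such a probe set. In these bulk samples, fewer cells of a type and less RNA per cell cannot be told apart, and the part of the lower PYK10 signal in the low values at 40 °C was not tested. The ratio of the 3′ to the 5′ control probe set, a measure of RNA integrity, was 1.25 to 1.76 in the mutant and 1.27 to 1.39 in wild type for GAPDH. For actin it was 3.89, 5.87 and 3.29 in the mutant and 4.89, 6.57 and 4.27 in wild type at 20, 30 and 40 °C, highest at 30 °C in both; with the other actin control pair it was 2.02, 2.24 and 1.76 in the mutant and 2.35, 1.67 and 1.80 in wild type. The part of RNA integrity in the values below was not tested.

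Few probe sets followed this course. At 30 °C, 8.01% of all probe sets were raised by at least 0.8 in the mutant and 8.84% in wild type, and at 40 °C, 7.31% and 7.48% were lowered by as much. At 30 °C, 1433 of 22746 probe sets (6.3%) were raised by at least 0.8 in both genotypes, and at 40 °C, 1192 (5.24%) were lowered by at least 0.8 in both. Both thresholds were met by 91 probe sets (0.4% of all). These are 91 of the 1433 raised at 30 °C, beside 1192 of all 22746 (5.24%) that were lowered at 40 °C. Whether the overlap departs from that share was not tested. Of the 91, 88 (0.387% of all) also met the bound on the genotypes at 40 °C, of which EXO and EXLA2 were left out. Of the 1433 probe sets raised at 30 °C, another 237 were raised at 40 °C as well, beside 750 of all 22746 (3.3%). This overlap was not tested either. A further 1105 of the 1433 were neither raised nor lowered at 40 °C in both genotypes. All 86 members exceeded the floor on 2 or more arrays.

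The probe sets chosen in a single genotype were looked up in the other, although the genotypes are not replicates of a condition. In the mutant alone, 162 probe sets (0.712%) met both temperature thresholds. Of these, 56.2% met them in wild type, where 0.536% of all probe sets did, and 96.9% had both signs there, against 10.6% of all probe sets. In wild type alone, 122 met both. Of them, 74.6% met both thresholds in the mutant and 98.4% had both signs there, against 10.3% of all. These are values that the rule used, so the shares describe the overlap and test nothing. All probe sets include those at the floor at 20 °C, 24.8% in the mutant and 26.9% in wild type, which cannot fall below it.

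The members were expressed at a middle to high level before they were raised. Their median signal was 146.65, 508.7 and 54.3 in the mutant and 151.95, 483.0 and 54.25 in wild type at 20, 30 and 40 °C. At 30 °C the median member exceeded 94.3% of probe sets in the mutant and 94.2% in wild type, and at 40 °C 55.9% in both. A probe set at the floor at 20 °C cannot fall below it, so the rule itself kept out weak ones. The median difference of 30 minus 20 °C was 1.42 in both genotypes, with a range of 0.82 to 4.31 in the mutant and 0.81 to 4.13 in wild type. The median difference of 40 minus 20 °C was -1.37 in the mutant and -1.30 in wild type, and that of 40 minus 30 °C was -2.88 and -2.83. For 65 members the rise was at least 2-fold in both genotypes (4.82% of all probe sets), and for 19 at least 4-fold (1.43%). The fall below 20 °C was at least 2-fold for 58 members (3.57% of all) and at least 4-fold for 8 (0.501%). On the 40 °C arrays, 7 members were at the floor in both genotypes, 5 in the mutant alone and 1 in wild type alone; for these the fall is a lower limit. Across the 86 members the rise at 30 °C had a rank correlation of 0.79 between the genotypes and the fall at 40 °C one of 0.64; these arrays are shared by all members and the rule bounds both values, so the correlations only describe the order.

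**Figure D1:**
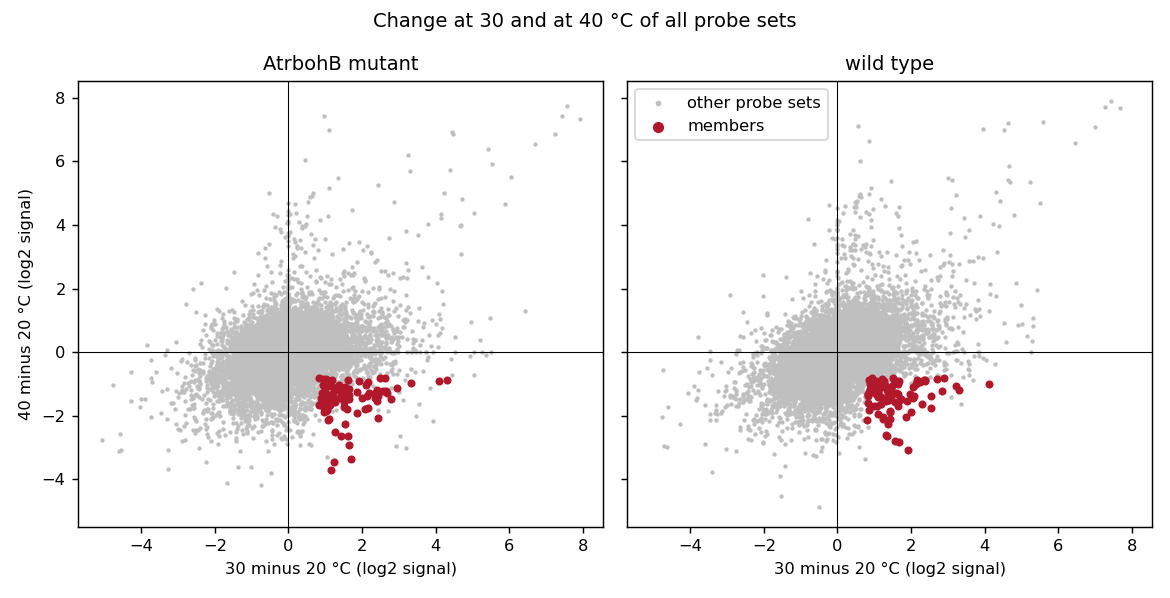
Change of every probe set at 30 against 20 °C (horizontal axis) and at 40 against 20 °C (vertical axis), both in log2 signal, in the AtrbohB mutant and in wild type; red points are the 86 members and grey points all others. The members fill the lower right corner, with medians of 1.42 and -1.37 in the mutant and 1.42 and -1.30 in wild type, a region that 0.712% and 0.536% of probe sets reach in a single genotype.

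The platform annotation gives 1 gene for 41 of the members, several genes for 2 and lists none for 43. Over all 22746 probe sets it gives 1 gene for 13513, several for 503 and none for 8730. The 41 genes are ordered below by what they encode; these groups were formed after their values were seen, so their sizes support nothing. The largest group, 11 genes, holds mainly enzymes and inhibitors of wall polysaccharides. It also counts BGLU25 and AT3G53950, described below, whose action on wall polysaccharides was not tested. The median difference of the 11 at 30 °C was 1.43 in the mutant and 1.60 in wild type, and at 40 °C -1.43 and -1.32.

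XTH19, a xyloglucan endotransglucosylase, had signals of 96.7, 275.8 and 32.5 in the mutant and 82.8, 267.9 and 29.0 in wild type at 20, 30 and 40 °C. At 30 °C it was 2.85-fold higher than at 20 °C in the mutant and 3.24-fold in wild type, and at 40 °C it lay 2.98-fold and 2.86-fold below the 20 °C level. Of the measured genes of this family, only XTH19 met both temperature thresholds in both genotypes. The gene reference holds 33 genes of the family, of which 10 had a probe set listed for that gene alone. Of 10 measured xyloglucan endotransglucosylases, 4 were raised at 30 °C in both genotypes, 1 was lowered, and 2 were lowered at 40 °C, where the shares for all probe sets are 6.3% raised at 30 °C and 5.24% lowered at 40 °C. XTH16 came near, with 174.5, 1136 and 48.9 in the mutant and 144.3, 981.9 and 86.0 in wild type, but its fall of 0.75 in wild type at 40 °C missed the threshold. XTH33 had differences of 2.95 in the mutant and 3.77 in wild type at 30 against 20 °C; at 40 against 20 °C it had -0.69 in the mutant and 1.03 in wild type.

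Several members encode glycosyl hydrolases of family 17, relatives of the enzymes that split callose. AT5G55180 had 213.1, 1115 and 79.2 in the mutant and 209.6, 869.0 and 97.3 in wild type at 20, 30 and 40 °C, a 5.23-fold and a 4.15-fold rise. AT3G04010 had 32.8, 119.0 and 2.5 in the mutant and 33.5, 101.4 and 10.9 in wild type; both 40 °C values are under the floor. AT5G58090 had 168.9, 404.6 and 56.6 in the mutant and 160.9, 360.2 and 78.3 in wild type. AT4G18340 had 100.9, 202.2 and 39.6 in the mutant and 79.9, 203.0 and 35.3 in wild type. In all 4 the 30 °C value was the highest of the genotype and the 40 °C value the lowest, and the rise was 1.00 to 2.39 in the mutant and 1.16 to 2.05 in wild type on the log2 scale.

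Proteins of the family of invertase and pectin methylesterase inhibitors account for 3 members. AT5G62350 had 439.2, 2231 and 179.5 in the mutant and 441.4, 1886 and 170.3 in wild type, a rise of 5.08-fold and 4.27-fold. AT1G14890 stood out for its fall: 84.3, 227.5 and 3.3 in the mutant and 91.5, 228.9 and 14.9 in wild type, at least 6.15-fold below 20 °C in the mutant, where 40 °C is under the floor, and 6.14-fold in wild type. AT4G25260 had 140.0, 281.8 and 38.9 in the mutant and 132.6, 302.4 and 43.3 in wild type. Of the pectin enzymes in the lists, none of 6 measured was raised at 30 °C and 1 was lowered at 40 °C, too few genes to set against the 6.3% and 5.24% of all probe sets.

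AT5G06700, the gene TRICHOME BIREFRINGENCE, which is needed for the normal cellulose and pectin of the secondary wall, had 201.3, 737.6 and 53.2 in the mutant and 189.6, 633.2 and 68.8 in wild type. It fell 3.78-fold below 20 °C in the mutant and 2.76-fold in wild type. BGLU25, a beta-glucosidase, had 74.6, 169.2 and 41.1 in the mutant and 59.4, 166.5 and 25.1 in wild type. AT3G53950, related to glyoxal oxidases, which make hydrogen peroxide, had 44.0, 91.3 and 16.5 in the mutant and 34.2, 106.2 and 12.4 in wild type. All 3 were lowest at 40 °C in both genotypes.

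A further 8 members encode wall and cell-surface proteins or secreted peroxidases, with median differences of 1.07 and 1.27 at 30 °C and -1.28 and -1.14 at 40 °C, mutant and wild type in turn. The largest rise of any member with a listed gene was that of AT1G17620, of the hydroxyproline-rich LEA glycoprotein family. It had 80.8, 820.7 and 41.6 in the mutant and 77.6, 728.9 and 37.3 in wild type at 20, 30 and 40 °C, a 10.2-fold and a 9.39-fold rise, and lay 1.94-fold and 2.08-fold below 20 °C at 40 °C. AT3G50570, another hydroxyproline-rich glycoprotein, had 47.7, 137.4 and 22.1 in the mutant and 39.7, 127.6 and 21.4 in wild type. AT4G30460, a glycine-rich protein, lay near the threshold, with 75.0, 132.5 and 42.5 in the mutant and 70.2, 158.5 and 32.6 in wild type. SKU5, a membrane-anchored glycoprotein that guides the direction of root growth, had 766.7, 1701 and 364.2 in the mutant and 838.3, 1557 and 451.3 in wild type. AT1G45688, a membrane protein that accompanies cellulose synthase, had 396.9, 737.3 and 145.4 in the mutant and 360.4, 647.1 and 144.4 in wild type.

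The 3 peroxidases rose by 0.96 to 1.08 in the mutant and 0.89 to 1.43 in wild type at 30 °C. AT5G64120 had 155.2, 321.3 and 45.6 in the mutant and 135.9, 366.9 and 36.9 in wild type; its fall at 40 °C was 3.40-fold and 3.68-fold. AT4G33420 had 188.8, 367.0 and 56.0 in the mutant and 171.3, 441.0 and 71.1 in wild type. AT3G28200 had 274.6, 581.5 and 96.4 in the mutant and 265.1, 490.1 and 117.4 in wild type. At 30 °C the first pair was lower in the mutant than in wild type and AT3G28200 was higher.

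Signalling and the cytoskeleton are represented by 4 members. AT3G59350, a protein kinase of the Pti1 type, had 138.0, 865.6 and 58.9 in the mutant and 160.3, 723.5 and 87.8 in wild type, a rise of 6.27-fold and 4.51-fold. AT3G22060, a secreted protein with cysteine-rich repeats, had 48.6, 255.7 and 21.4 in the mutant and 57.1, 291.0 and 31.1 in wild type. AT2G23450, a kinase like the wall-associated kinases, had 50.8, 99.9 and 9.3 in the mutant and 61.0, 108.3 and 24.7 in wild type, so its mutant value at 40 °C is under the floor. AT3G07540, a formin that nucleates actin filaments, had 42.0, 81.0 and 6.8 in the mutant and 44.8, 82.8 and 22.4 in wild type. All 4 were lower in the mutant at 40 °C, a difference that the rule bounds at 1. So were 48 of the 86 members and 8626 of the 18227 probe sets that exceeded the floor on 2 or more arrays. For AT2G23450 and AT3G07540 the mutant value at 40 °C is under the floor.

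The receptor kinases FER and THE1, sensors of wall integrity and no members, were likewise raised at 30 °C in both genotypes, but missed the threshold at 40 °C. They are 2 of the 3 measured genes listed by symbol as receptor-like kinases, and 6.3% of all probe sets were raised so. The other, CRK, went the other way at 30 °C, with -0.39 in the mutant and -0.70 in wild type. FER had 339.4, 1024 and 198.1 in the mutant and 391.8, 890.7 and 262.8 in wild type, and THE1 had 139.0, 439.9 and 72.9 in the mutant and 132.2, 423.2 and 105.2 in wild type. Their 30 minus 20 °C differences were 1.59 and 1.18 for FER and 1.66 and 1.68 for THE1, mutant and wild type in turn, beside a member median of 1.42. Their 40 minus 20 °C differences were -0.78 and -0.58 for FER and -0.93 and -0.33 for THE1, mutant and wild type in turn, so that at least 1 genotype missed the threshold.

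Among 4 members of metabolism, a pair handles the branched-chain amino acids. MCCA, the biotin-carrying subunit of 3-methylcrotonyl-CoA carboxylase in leucine breakdown, had 133.1, 817.3 and 76.3 in the mutant and 113.2, 738.9 and 63.0 in wild type, a rise of 6.14-fold and 6.53-fold. AT2G31810, the regulatory subunit of acetolactate synthase in the synthesis of these amino acids, had 479.1, 945.8 and 216.0 in the mutant and 498.3, 954.2 and 242.9 in wild type, a rise of 1.97-fold and 1.91-fold. FATB, the thioesterase that releases saturated fatty acids in the plastid, had 388.6, 746.1 and 188.2 in the mutant and 379.9, 703.1 and 206.7 in wild type. AT3G50560, of the NAD(P)-binding Rossmann-fold family, had 204.4, 1140 and 117.2 in the mutant and 206.7, 1086 and 113.9 in wild type. Its fall and that of MCCA, between 0.80 and 0.86 in all 4 cases, were the smallest among these genes.

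Among members with a listed gene, the deepest fall belonged to AT5G19120, 1 of 2 members of the aspartyl protease family. Its signals were 803.6, 1907 and 73.1 in the mutant and 645.9, 2075 and 91.9 in wild type at 20, 30 and 40 °C. At 40 °C it lay 11.0-fold below the 20 °C level in the mutant and 7.03-fold in wild type, and 26.1-fold and 22.6-fold below the 30 °C level. AT3G52500, the other protease, had 213.8, 613.1 and 78.6 in the mutant and 221.9, 555.6 and 77.4 in wild type.

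Regulatory and trafficking proteins gave 3 members. AT1G69570, a transcription factor of the Dof type, had 78.3, 242.4 and 43.1 in the mutant and 87.7, 235.0 and 33.9 in wild type. AT1G14330, a kelch-repeat protein, had 71.1, 169.7 and 32.6 in the mutant and 63.0, 174.6 and 30.0 in wild type. AT4G29950, a GTPase-activating protein for Rab proteins of vesicle traffic, had 224.8, 523.1 and 91.5 in the mutant and 217.6, 523.6 and 117.3 in wild type. The 3 are alike in size of change, with rises of 1.22 to 1.63 in the mutant and 1.27 to 1.47 in wild type.

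For 9 members no role is given here, and some of them were among the largest. AT3G15630 had 270.1, 1471 and 103.2 in the mutant and 186.1, 1346 and 80.1 in wild type. AT3G15450 had 1290, 3758 and 510.9 in the mutant and 988.8, 2851 and 536.7 in wild type. AT1G33055 had 58.1, 314.2 and 12.4 in the mutant and 45.8, 269.1 and 10.7 in wild type; it was at the floor at 40 °C in both genotypes, at least 4.24-fold and 3.34-fold below 20 °C. These 3 were higher in the mutant than in wild type at both 20 and 30 °C, and are among the 4 named for the largest mean of that difference. With quantile normalization the difference at 30 °C was -0.02 for AT3G15630, 0.04 for AT3G15450 and 0.22 for AT1G33055. AT1G25275 had 338.9, 1355 and 126.1 in the mutant and 438.0, 1043 and 102.2 in wild type, so that it was lower in the mutant at 20 °C and higher at 30 °C. AT3G06150 had 104.3, 230.0 and 35.3 in the mutant and 97.4, 194.1 and 30.1 in wild type.

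**Figure D2:**
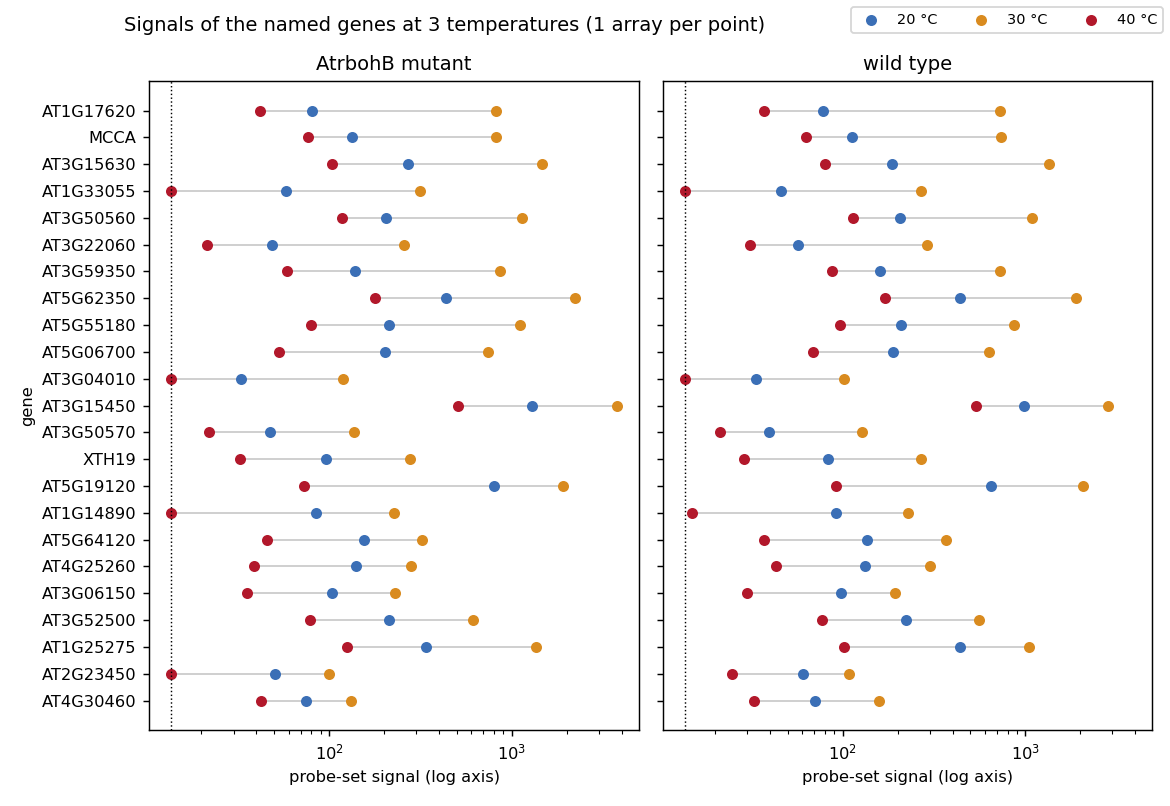
Probe-set signal (log axis) of 23 genes at 20 °C (blue), 30 °C (orange) and 40 °C (red) in the AtrbohB mutant and in wild type; each point is 1 array, the dotted line is the floor of 13.7, and values under it are drawn on it. In every row of both panels the points run from 40 to 20 to 30 °C, and the 40 °C point reaches the floor in both panels for AT1G33055 and AT3G04010.

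The 43 members without a listed gene included larger changes than any of those named. The probe set 264415_at had 24.9, 494.3 and 2.2 in the mutant and 27.2, 475.9 and 2.2 in wild type at 20, 30 and 40 °C, a rise of 4.31 and 4.13 on the log2 scale. Next in size of the rise was 252415_at, with 160.1, 2755 and 85.8 in the mutant and 226.3, 2255 and 99.3 in wild type. The deepest fall in the mutant was that of 254085_at, with 463.2, 1041 and 35.3 there and 397.6, 1011 and 64.1 in wild type. As a group, the 43 had median rises of 1.52 in the mutant and 1.40 in wild type and median changes at 40 °C of -1.38 and -1.37. The pair of probe sets that match several genes had rises of 1.11 and 1.61 in the mutant and 0.81 and 1.86 in wild type.

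Members at the edge of the rule show how narrow it is. Just inside were AT3G50560, at -0.80 for 40 minus 20 °C in the mutant, MCCA, also at -0.80 there, and AT4G30460, at 0.82 for 30 minus 20 °C and -0.82 for 40 minus 20 °C in the mutant. Just outside were AT5G24010, with 0.78 in wild type at 30 °C, AT3G57420, with -0.78 in wild type at 40 °C, and AT4G28300, with 0.78 at 30 °C and -0.79 at 40 °C in the mutant. EXLA2 and EXO met the rule and were left out by name, with rises of 3.46 and 3.04 in the mutant and 3.37 and 3.09 in wild type. EXLA1 did not meet it, at -2.17 in the mutant and -0.56 in wild type at 40 °C.

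The larger lists were counted in the same way. A list of 19 measured genes held expansins, which loosen walls without cutting them, and expansin-like genes. At 30 °C, 4 were raised (EXLA1, EXLA2, EXLA3 and EXPA16) and 4 lowered (EXPB1, EXPB3, EXPA8 and EXPA15) in both genotypes. At 40 °C, 4 of the 19 were lowered in both. Of all 22746 probe sets, 1433 (6.3%) were raised and 1420 lowered at 30 °C, and 5.24% were lowered at 40 °C. EXLA2 alone of the 19 met both thresholds in both genotypes, as 0.4% of all probe sets did. None of 28 cytochromes P450, 51 UDP-glycosyltransferases, 14 glutathione transferases and 12 auxin response genes met both, which at a share of 0.4% over all probe sets says nothing particular about these families. Of 30 genes known to respond fast to touch and stress, 5 had a probe set of their own, 3 of them were raised at 30 °C (6.3% of all probe sets), and none was lowered at 40 °C (5.24% of all). The ubiquitin ligase PUB22, for example, had 50.2, 112.8 and 58.2 in the mutant and 51.2, 133.3 and 131.9 in wild type. Lists of brassinosteroid, jasmonate and ethylene genes, of SAUR genes and of AP2/ERF factors had no probe set annotated with such a gene alone. They were not analysed here. The platform annotation lists no gene for 8730 of the 22746 probe sets, so this does not show that the array lacks these genes.

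Genes next to the members on the chromosome were looked up as well. For 25 of the 41 member genes, the protein-coding gene on at least 1 side had its own probe set. In 2 of the 41 measured pairs the neighbour was itself a member. Apart from these there were 39 neighbours, and leaving out members means that these could hardly follow the whole course. Their median difference of 30 minus 20 °C was 0.00 in the mutant and 0.02 in wild type, and of 40 minus 20 °C -0.04 and 0.00. Of the 39, 4 (10.3%) were raised at 30 °C in both genotypes and 3 (7.69%) lowered at 40 °C, against 6.3% and 5.24% of all probe sets. Leaving out members lowers the shares of the neighbours, since every member is raised at 30 °C and lowered at 40 °C.

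A pair of members, AT3G50560 and AT3G50570, lie side by side. The neighbours raised at 30 °C were XTH18 beside XTH19, AT5G62360 beside AT5G62350, AT5G19110 beside AT5G19120 and AT2G31800 beside AT2G31810. XTH18 had 45.5, 1691 and 59.3 in the mutant and 52.0, 1573 and 93.3 in wild type, so its difference at 30 °C was larger than that of XTH19 and it stayed above its 20 °C level at 40 °C. AT5G62360 had 17.3, 528.3 and 15.8 in the mutant and 9.6, 529.3 and 2.9 in wild type, and AT5G19110 had 14.8, 153.8 and 18.1 in the mutant and 4.7, 195.8 and 12.9 in wild type. AT2G31800 had 59.5, 213.9 and 98.2 in the mutant and 62.5, 196.5 and 88.5 in wild type. The first 3 of these neighbours belong to the family of the member beside them, and signal shared between such copies was not tested.

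**Figure D3:**
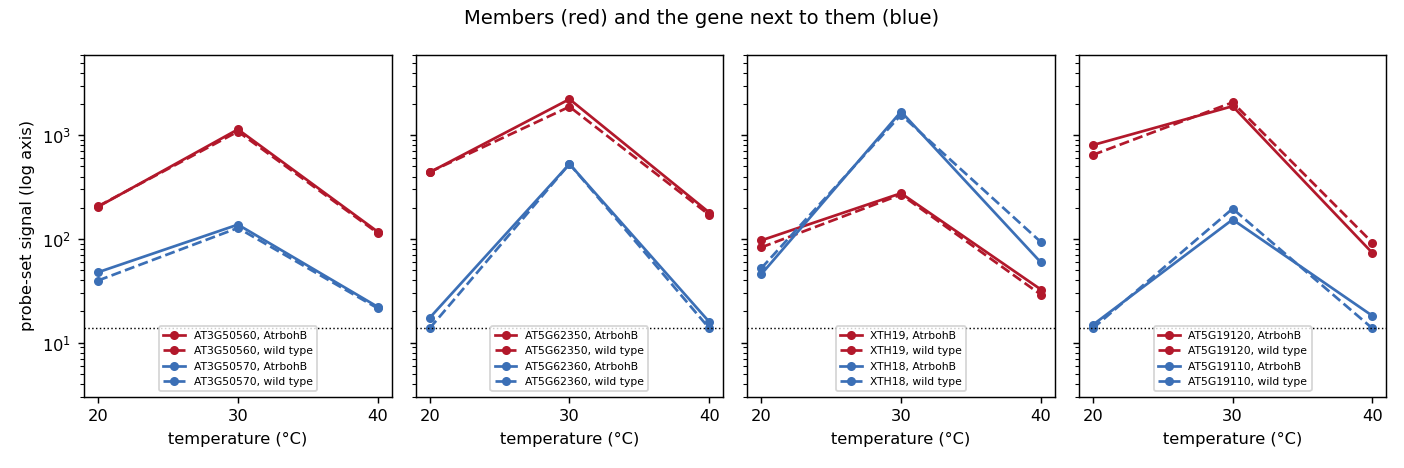
Probe-set signal (log axis) against temperature for 4 members (red) and the gene beside each (blue), in the AtrbohB mutant (solid line) and wild type (dashed line), 1 array per point; the dotted line is the floor of 13.7, and values under it are drawn on it. All 8 genes peak at 30 °C; only the red genes and AT3G50570, itself a member, end at least 0.8 on the log2 scale below their 20 °C value in both genotypes.

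The rule set no bound on mutant minus wild type at 20 and 30 °C. It did use the signals of both genotypes at these temperatures, so the differences below are not independent of it. At 20 °C the median of mutant minus wild type over the 86 members was 0.01 on the log2 scale, with 44 above 0 (51.2%). Of the tested probe sets, 50.6% were above 0. No member differed by 1, as 0.236% of the tested probe sets did downward and 0.39% upward. At 30 °C it was 0.11, with 60 members (69.8%) higher in the mutant, against 40.6% of the 18227 probe sets tested, those that exceeded the floor on 2 or more arrays, whose median was -0.02. At 40 °C, where the rule bounds the difference, the median was -0.07, with 31 members (36.0%) higher and 48 lower in the mutant. Of all tested probe sets, 49.8% were higher in the mutant at 40 °C. So were 24.1% of the 237 raised at both 30 and 40 °C. Of the 1105 raised at 30 °C and neither raised nor lowered in both genotypes at 40 °C, 31.0% were higher. By at least 1, 1.09% of all tested probe sets were lower and 0.461% higher. Fewer members led at 30 °C once the arrays were quantile-normalized: 53 of 86 (61.6%), with a median of 0.03. On that scale 48.1% of the tested probe sets were higher in the mutant, as were 55.7% of the 237 raised at both temperatures. The same held for 60.7% of the 1105 raised at 30 °C and neither raised nor lowered in both genotypes at 40 °C. The mutant array at 30 °C had the lowest median signal of all, 38.5, and a highest signal of 5441, against 41.0 and 4203 in wild type at 30 °C; the part of this wider spread in the difference was not tested.

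Single members differed little between the genotypes. At 30 °C the differences ran from -0.29 to 0.40, and none reached 1, as 0.143% of the tested probe sets did upward and 0.499% downward. With limma on the 4 arrays at 20 and 30 °C, genotype and temperature additive and Benjamini-Hochberg adjustment over 18227 probe sets, 0 were called (0%) and 418 (2.29%) had an unadjusted p under 0.05. Of the 86 members, 3 had such a p and all had an adjusted p of 1. They were AT3G15450, higher in the mutant by 0.39 ± 0.11 (SE of the limma fit), 247524_at, higher by 0.45 ± 0.13, and 247266_at, at -0.38 ± 0.10. Each had the same sign at 20 and 30 °C, which this fit requires for such a p, so the shared sign adds no support. With quantile normalization AT3G15450 had 0.38 at 20 °C but only 0.04 at 30 °C. The fit has 1 residual degree of freedom and so little power that these values do not show the genotypes to be alike.

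The fall between 30 and 40 °C was larger in the mutant for 64 of the 86 members (74.4%), against 44.2% of the tested probe sets. The same held for 175 of the 237 probe sets raised at both temperatures (73.8%) and for 730 of the 1105 raised at 30 °C and neither raised nor lowered in both genotypes at 40 °C (66.1%). With quantile normalization the counts were 56 of 86 (65.1%), 170 of 237 (71.7%) and 724 of 1105 (65.5%). On that scale the share of the tested probe sets was 48.2%. The median falls of the members were 2.88 in the mutant and 2.83 in wild type, and with 1 array per group the difference has no test. At 30 °C, 58.2% of the 237 and 59.8% of the 1105 probe sets were higher in the mutant. The members had higher signals than both other sets at 20 and at 30 °C. Their median signal at 20 °C was 146.65 in the mutant and 151.95 in wild type, against 42.5 and 45.5 for the 237 and 59.6 and 58.0 for the 1105. At 30 °C it was 508.7 in the mutant and 483.0 in wild type, against 197.1 and 203.8 for the 237 and 177.6 and 175.4 for the 1105. The rule favours a high signal at both temperatures.

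**Figure D4:**
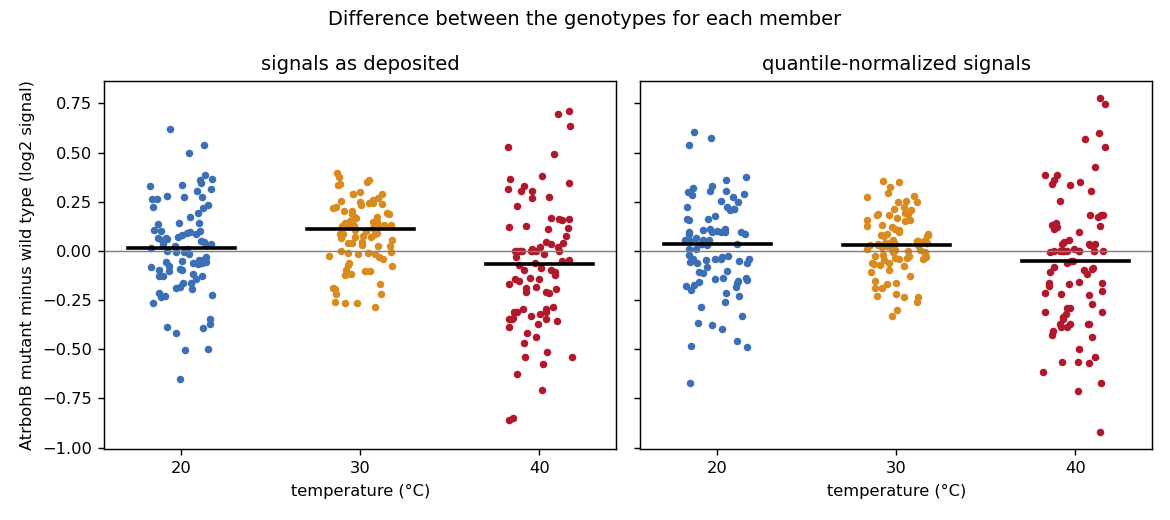
Mutant minus wild type in log2 signal for each of the 86 members at 20, 30 and 40 °C, from signals as deposited and after quantile normalization; each point is a member and the bar is the median. As deposited, the medians are 0.01, 0.11 and -0.07, and quantile normalization brings the 30 °C median to 0.03.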

How the data were processed

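The values deposited for the 6 arrays are intensity values per probe set, not logged, scaled by the authors so that the mean without the highest and lowest 2% of values is 100 on each array; the software is not given in the sources used here. Signals were raised to 13.7, the 25th percentile over every array, before log2 was taken of the deposited values. Control probe sets (64 of 22810) were left out. The floor is not a detection limit.

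Genes were named from the platform annotation (1 gene for 13513 probe sets) and updated through RefSeq, assembly TAIR10.1; for lists and neighbours, the probe set with the highest mean stood for a gene. Members and lists were chosen with earlier results of these data known. The named genes are the 14 largest rises, the 10 largest falls, members in lists, the 4 and 4 most different between genotypes, and 3 at the threshold; other members were added after their values were seen.

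Genotypes were compared with limma 3.58.1 in R 4.3.3 (lmFit, eBayes with trend, two-sided), tested on simulated data. The simulation was revised more than once after its results were seen: noise from fitted variances gave false calls, and noise redrawn from the prior left small changes unrecovered, so larger changes were added. It shows that the code finds large changes, not that small ones could be found. The groups by role, the look-up of neighbours, the comparison with other raised probe sets, the size for a turn of sign and the use of gene synonyms in lists were also chosen after values were seen. The number of arrays limits the precision. Alternatives were floors, log2(value + 16), quantile normalization, a common median, other thresholds, priors and filters. Promoter sequences were not used here.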

Additional observations from a re-analysis of the deposited data

Results flagged for a closer look

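With 1 array per group, the difference between mutant and wild type turned its sign between temperatures for a few members, by at least 0.3 on the log2 scale at each temperature, and none of these turns was tested. The probe set 255818_at had 0.35 at 30 °C and -0.62 at 40 °C, 252367_at had 0.50 at 20 °C and -0.35 at 40 °C, and 247717_at had 0.36 and -0.42 at the same temperatures. AT5G19120, the aspartyl protease with the deepest fall, had 0.32 at 20 °C and -0.33 at 40 °C. AT1G25275 had -0.37 at 20 °C, 0.38 at 30 °C and 0.30 at 40 °C. Over the 86 members, the median difference of -0.0659 at 40 °C had the opposite sign to those at 20 °C (0.01) and 30 °C (0.11).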

How the results depend on the processing

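No paired analysis was possible because each group has 1 array. The set of 86 held 74 members with the floor at the 40th percentile, 58 with log2(value + 16), 89 with quantile normalization, 98 with a common median and 89 without the bound at 40 °C, of which 73, 57, 81, 86 and 86 were the same probe sets. A threshold of 0.5 gave 198 and of 1 gave 44, the mutant alone gave 159 and wild type alone 120, all without EXO, EXLA1 and EXLA2, which the counts of 162 and 122 above include. The median rise of 1.42 was 1.30 with log2(value + 16), 1.41 with quantile normalization and 1.49 with a common median. The median change at 40 °C of -1.33 became -1.22 with the higher floor, -1.14 with log2(value + 16) and -1.38 with a common median. Mutant minus wild type had a median of 0.01 at 20 °C that turned to -0.0458 with a common median, and one of 0.11 at 30 °C that was 0.0316 with quantile normalization and 0.20 with a common median; the cause was not tested. The limma count of 0 between genotypes was 27 with log2(value + 16) and 16 with a filter on all 6 arrays, with no member among them, and 0 under the other alternatives. No single member's mean rise or fall turned its sign under the 4 alternatives of scale and floor, but with the higher floor the fall at 40 °C of 264415_at was 0 instead of -0.93 and that of AT3G04010 was -0.25 instead of -1.27, as that floor of 27.9 lies above the 20 °C signals of 264415_at and just below those of AT3G04010.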
